A study of Mus musculus with 106 samples.

Results

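Arntl, Clock, Per1, Per2, Per3, Cry1, Cry2, Nr1d1, Nr1d2 and Dbp are 10 genes of the core circadian clock, followed here in brain tissue of control mice and mice with a Huntington's disease (HD) mutation. They were chosen by name, not by a measured value, and all 10 were found among the 55401 mouse genes of the counts table, of which 21897 are protein-coding. Each of the 10 passed the filter of a mean count above 10 in all 24 comparisons. Their lowest count in any library was 132, for Per3.

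As background, the clock is a transcriptional loop that runs in nearly every cell. CLOCK and ARNTL (BMAL1) bind E-box sequences as a pair and switch on the Per and Cry genes, whose proteins return to the nucleus and block that pair. The nuclear receptors REV-ERB alpha (Nr1d1) and REV-ERB beta (Nr1d2) repress Arntl and Clock in a connected loop, while DBP carries the rhythm to output genes through D-box sequences. Neurons of the suprachiasmatic nucleus keep the clocks of other brain cells in step, so the RNA of these genes depends on the hour at which tissue is taken.

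The study compared mice heterozygous for a knock-in expanded CAG repeat (Hdh Q7/Q200, called HD) with Hdh Q7/Q7 littermates (called control), all on the 129S4 strain and about 9 months old. Every mouse, controls included, carried 1 copy of a Cre driver (Gad2, PV, SST or vGluT2) and 1 copy of the RiboTag allele, which adds an HA epitope to the ribosomal protein Rpl22 in cells that have expressed Cre. Ribosome-bound RNA was immunoprecipitated (IP) through the tag, and total RNA was taken from the same homogenates for some of the mice. The table held 67 IP and 39 total RNA libraries from 45 mice, with 21.9 to 108 M counts per library and a median of 35.9 M.

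The IP groups, control against HD, had 6 and 6 cerebral Gad2 libraries, 6 and 5 cerebral PV, 5 and 4 cerebral SST, 6 and 6 cerebral vGluT2, 6 and 6 cerebellar Gad2, and 5 and 6 cerebellar vGluT2. The total RNA groups had 3 or 4 libraries each, giving 25 cerebral and 14 cerebellar libraries over both genotypes. Cerebral and cerebellar libraries of the Gad2 and vGluT2 lines came from the same mice, as did IP and total RNA pairs. An IP covers every cell with a history of Cre expression in the homogenate of a cerebral or cerebellar hemisphere, so it mixes brain regions and neuron subtypes. For each PV brain 2 IP aliquots were pooled, and 3 HD IP libraries were sequenced a second time with longer reads. The labels give no hour of death, so clock phase cannot be told apart from any other difference between mice.

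Marker genes set most of the IP types apart. Summed Gad1, Gad2 and Slc32a1 averaged 2681 CPM (counts per 1 M counts of the library) in cerebral Gad2 IPs and 3010 in cerebellar Gad2 IPs, against 650 and 768 in the total RNA of those lines. In cerebral vGluT2 IPs the same sum was 76.9 CPM, while Slc17a7 averaged 2076 CPM. Slc17a6 did not set those IPs apart, averaging 111 CPM there, 121 in PV and 113 in SST IPs, and its list of 3 markers summed to 185, 148 and 174 CPM. Pvalb averaged 661 CPM in PV IPs and 146 in cerebral total RNA, and Sst averaged 1437 CPM in SST IPs and 247 in cerebral total RNA. Purkinje markers, led by Car8, summed to 8414 CPM in cerebellar Gad2 IPs, and granule cell markers, led by Zic1, to 4658 CPM in cerebellar vGluT2 IPs. PV and SST IPs also held this glutamatergic marker, since Slc17a7 averaged 858 CPM in PV IPs and 874 in SST IPs. The 6 oligodendrocyte markers summed to 3483 CPM in SST and 1927 in PV IPs, against 5564 and 5660 in total RNA of those lines. Their sum was 829 CPM in cerebral Gad2 and 480 in cerebral vGluT2 IPs. In SST IPs the GABAergic sum was 1397 CPM, against 669 in total RNA of that line. Whether the glutamatergic and oligodendrocyte RNA came from tagged or untagged cells was not tested.

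Vip, a marker of the suprachiasmatic nucleus but also of cortical interneurons, averaged 96.6 CPM in cerebral Gad2 IPs and at most 6.88 in the other cerebral IP types. Avp averaged 24.3 CPM in cerebral vGluT2 IPs with a range of 0.0787 to 64.9. The share of the central pacemaker in each library was not measured.

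Libraries differed in base composition, and some clock genes moved with it. A low-GC index was formed for each library after the data had been seen: the median log2 CPM of the 2606 genes with the lowest GC content minus that of the 2606 with the highest. Clock and Nr1d2 have GC-poor transcripts, 40.9% and 41.8% GC, below which lie 8.38% and 11.2% of genes. Dbp is GC-rich at 61.6%, above 97.8% of genes, while Per3 lies nearer the middle at 52.4%, above 62.4% of genes. IP libraries had a higher index than total RNA of the same mice in 6 of 6 PV mice, with a mean difference of 1.20, and in 6 of 6 SST mice, with a mean of 1.44. In the other types it was higher in 4 of 6 cerebral Gad2, 4 of 6 cerebral vGluT2, 5 of 6 cerebellar Gad2 and 6 of 7 cerebellar vGluT2 mice.

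The activators come first. Arntl (ENSMUSG00000055116, chromosome 7, 113207465 to 113314126, GRCm38) and Clock (ENSMUSG00000029238, chromosome 5, 76209868 to 76304792) encode the DNA-binding pair that drives the loop. Levels between genes are compared as CPM per kilobase of exon (RPKM), as mean ± SD over libraries of both genotypes. Arntl RPKM was highest in cerebellar Gad2 IPs at 8.58 ± 1.11 (n = 12), followed by cerebellar vGluT2 IPs at 5.33 ± 1.15 (n = 11) and cerebral vGluT2 IPs at 4.44 ± 0.58 (n = 12). Cerebral Gad2, PV and SST IPs followed at 3.10, 2.70 and 2.68 RPKM, each overlapping its neighbour in range.

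Clock RPKM led in cerebellar vGluT2 IPs at 6.66 ± 1.57 (n = 11) and was lowest in cerebral Gad2 IPs at 2.59 ± 0.87 (n = 12), with every neighbouring pair of types overlapping. Its spread was wide: in cerebral total RNA Clock ran from 0.423 to 5.50 RPKM over 25 libraries. Most of that range lay along the low-GC index, with Pearson's r of 0.98 and Spearman's rho of 0.99 over those libraries, given as a description across groups. There r was 0.95 for Nr1d2, -0.93 for Dbp, -0.88 for Nr1d1, 0.79 for Arntl and -0.77 for Per1. It was -0.68 for Cry2, 0.31 for Per2, 0.29 for Per3 and -0.24 for Cry1.

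Among the repressors, Per1 (ENSMUSG00000020893, chromosome 11, 69095217 to 69109960), Per2 (ENSMUSG00000055866, chromosome 1, 91415982 to 91459324) and Per3 (ENSMUSG00000028957, chromosome 4, 151003652 to 151044665) encode PERIOD proteins. Per1 and Per2 also respond to light and stress signals in many tissues, and Per3 is regarded as less essential to the core loop. Per1 was the most abundant Period gene in every IP type, from 13.9 ± 4.48 RPKM in cerebellar vGluT2 IPs to 7.70 ± 1.97 in cerebellar Gad2 IPs. Per2 ran from 3.02 ± 0.67 down to 1.56 ± 0.39 RPKM between the same 2 types. Per3 ran from 2.83 ± 0.52 RPKM in cerebellar vGluT2 IPs through 2.29 ± 0.40 in SST IPs to 1.20 ± 0.42 in cerebellar Gad2 IPs. Each Period gene thus had its highest mean in cerebellar vGluT2 IPs and its lowest in cerebellar Gad2 IPs, although neighbouring types overlapped throughout.

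Cry1 (ENSMUSG00000020038, chromosome 10, 85131700 to 85185064) and Cry2 (ENSMUSG00000068742, chromosome 2, 92403646 to 92434043) encode the cryptochromes, the main repressors of CLOCK and ARNTL. Cry1 separated the cerebellum from the cerebrum. Its RPKM was 23.5 ± 3.01 in cerebellar vGluT2 IPs (lowest 18.0), 13.9 ± 1.22 in cerebellar Gad2 IPs (12.2 to 15.4) and 7.93 ± 1.17 in cerebral Gad2 IPs (highest 9.69). Those 3 ranges did not overlap, and no other clock gene had neighbouring IP types whose ranges were apart. Below them, cerebral vGluT2, PV and SST IPs had 5.85, 5.44 and 4.99 RPKM and overlapped. Cry2 was nearly level, from 25.8 ± 3.74 RPKM in cerebellar vGluT2 IPs to 20.7 ± 1.93 in PV IPs.

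Nr1d1 (ENSMUSG00000020889, chromosome 11, 98767932 to 98775333), the REV-ERB alpha gene, was the most abundant clock gene per length in 5 of 6 IP types. Its levels formed an upper and a lower set, with 81.1 ± 14.3 RPKM in cerebellar vGluT2, 66.6 ± 9.999 in cerebral vGluT2, 61.7 ± 7.15 in cerebellar Gad2 and 46.8 ± 10.2 in cerebral Gad2 IPs, but 25.7 ± 5.12 in PV and 22.1 ± 3.27 in SST IPs. Nr1d2 (ENSMUSG00000021775, chromosome 14, 18204054 to 18239127), the REV-ERB beta gene, was highest in cerebellar vGluT2 IPs at 42.8 ± 11.9 RPKM and lowest in SST IPs at 17.3 ± 4.67. SST IPs thus had the lowest mean of both receptor genes, while in PV IPs Nr1d2 stood at 25.3 ± 5.45 RPKM, within the range of 4 other types.

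Dbp (ENSMUSG00000059824, chromosome 7, 45705088 to 45710203) encodes a PAR bZIP factor that acts on D-boxes. Dbp followed the Nr1d1 division, with 58.2 ± 11.6 RPKM in cerebral Gad2, 55.6 ± 14.5 in cerebellar Gad2, 44.9 ± 10.7 in cerebral vGluT2 and 38.5 ± 14.8 in cerebellar vGluT2 IPs. PV and SST IPs held 20.6 ± 3.34 and 19.4 ± 5.10 RPKM, and reached 26.0 and 30.7, above the lowest cerebellar vGluT2 IP at 23.6. The Nr1d1 sets overlapped too, with PV IPs up to 39.3 and cerebral Gad2 IPs from 28.9 RPKM. The libraries came from a stranded kit, but the strand setting of the counting is not stated. Some exons are shared with genes on the opposite strand: 539 bases of Dbp with Sphk2, 263 of Nr1d1 with Thra and 295 of Cry2 with D930015M05Rik. How reads from those bases were assigned was not tested.

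**Figure D1:**
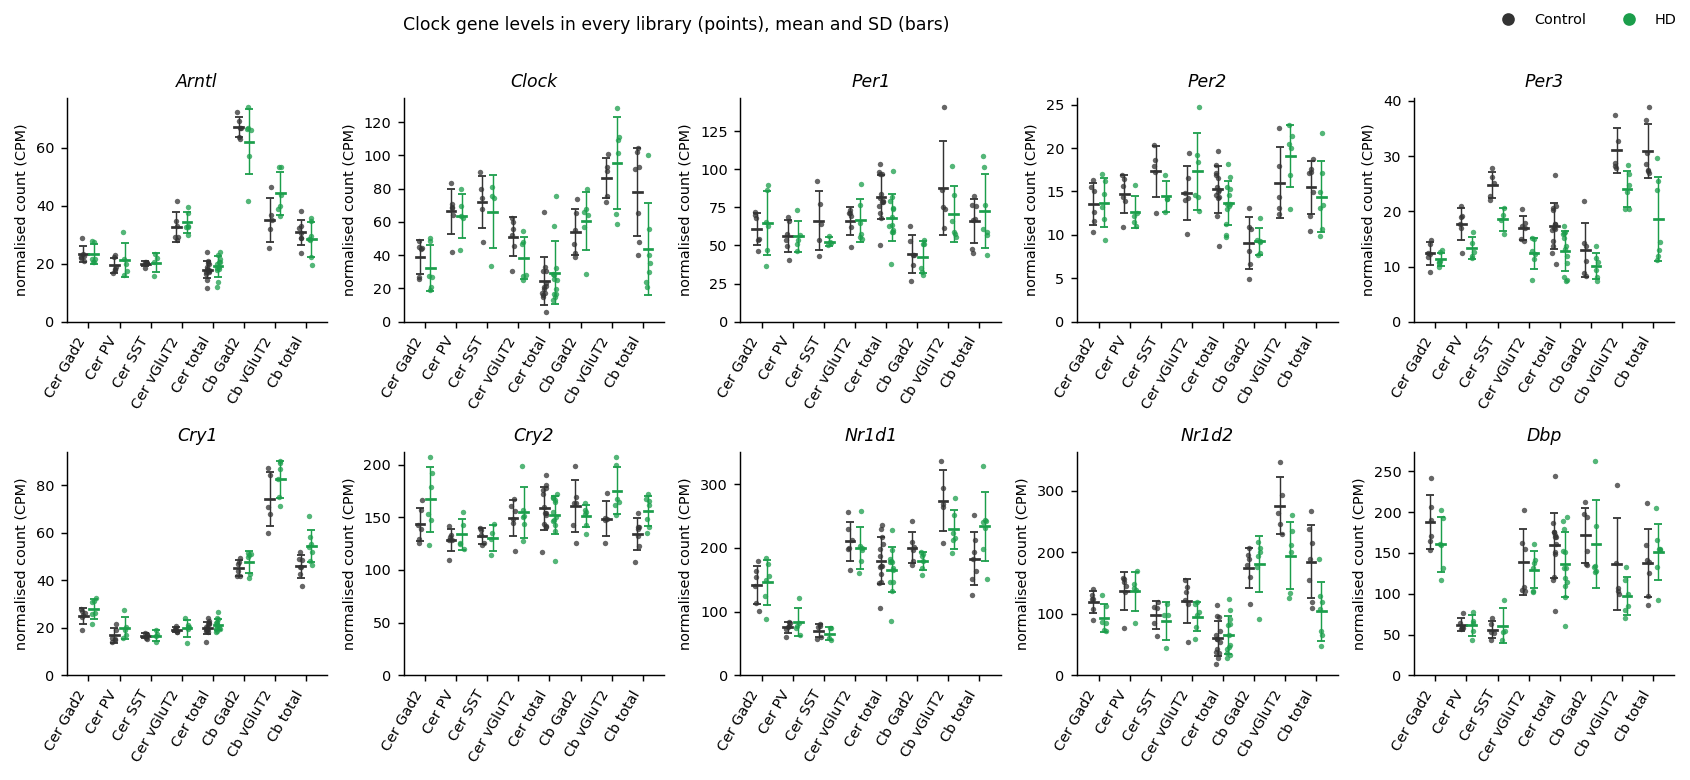
Normalised counts (CPM) of the 10 clock genes in every library, with 1 panel per gene, IP types and pooled total RNA along the x axis, control in dark grey and HD in green; bars are the mean and SD. Cry1 stands highest in the cerebellar groups, Nr1d1 and Dbp lowest in PV and SST IPs, and the HD points of Per3 lie mostly at or below the control median.

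Comparing each IP with total RNA of the same mice asks where a clock gene is richer in the tagged neurons than in the whole tissue. Total RNA contains glia and untagged neurons, and in such bulk samples fewer cells of a type and less RNA per cell cannot be told apart. Adjusted p values come from the quasi-likelihood test of edgeR, adjusted by Benjamini-Hochberg over all genes tested, with calls at 0.05 or less.

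In PV IPs 8 of 10 clock genes differed from total RNA, where 70.9% of all 14755 genes did. Dbp fell by 1.30 ± 0.12 (SE) on the log2 scale and Nr1d1 by 1.16 ± 0.12, each lower in 6 of 6 mice (edgeR adjusted p 1.71e-05 and 4.53e-05). Per1 (-0.31) and Cry2 (-0.21) were also lower, in 5 and 6 of 6 mice. Clock (1.77), Nr1d2 (1.42) and Per3 (0.62) were higher in 6 of 6 mice, and Arntl (0.42) in 4 of 6. Arntl lost its call without any 1 of BP1, BP10, BP31 and BP9, Per1 without BP1, BP30, BP31 or BP9 and Cry2 without BP28, BP31 or BP9.

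SST IPs gave the same 8 genes and the same signs, again near the background of 66% of 14889 genes. Nr1d1 fell by 1.48 ± 0.11 and Dbp by 1.46 ± 0.13 on the log2 scale, both lower in 6 of 6 mice (edgeR adjusted p 1.66e-06 and 3.07e-06). Per1 (-0.43) and Cry2 (-0.26) were lower, and Clock (1.95), Nr1d2 (1.01), Per3 (0.86) and Arntl (0.34) higher, each in 6 of 6 mice. Cry2 lost its call without any 1 of BR13, BR14, BR17 and Z59. With the low-GC index as a covariate, PV kept only Nr1d1 (-0.73, edgeR adjusted p 0.0221) and Dbp (-0.85, adjusted p 0.00518), while in SST no clock gene and 1 gene of all passed. IP and index nearly coincide in SST mice, so their parts cannot be told apart there.

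In cerebral Gad2 neurons 3 of 10 clock genes passed, against 47.8% of 14897 genes. Per3 fell by 0.61 ± 0.11 on the log2 scale and Per1 by 0.29 ± 0.10, each lower in 6 of 6 mice, and Nr1d2 rose by 0.82 ± 0.23 in 6 of 6 (edgeR adjusted p 0.00252, 0.0358 and 0.0195). Nr1d1 and Dbp, low in PV and SST neurons, were not low in this wider GABAergic population, with log2 differences of -0.10 and 0.47 that did not pass. Per1 lost its call without any 1 of BO19, BO2, BO20 and BO8, and Nr1d2 without BO19 or BO8. DESeq2 called 5 of the 10 here, against 55.7% of all genes.

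In cerebral vGluT2 neurons 4 of 10 passed, against 41.2% of 14787 genes. Arntl rose by 0.83 ± 0.13 on the log2 scale in 6 of 6 mice and Per1 fell by 0.42 ± 0.11 in 6 of 6 (edgeR adjusted p 0.00236 and 0.0169). Nr1d2 (0.95) and Clock (0.86) passed narrowly, higher in 5 and 4 of 6 mice, and with the index as a covariate stood at -0.03 and -0.09. Both lost their calls without any 1 of BQ32, BQ33, BQ35 and BQ36, and Per1 without BQ32, BQ35 or BQ36. Arntl kept its call with that covariate (0.58, edgeR adjusted p 0.0176).

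In cerebellar Gad2 neurons 5 of 10 passed, against 61.5% of 14298 genes. Arntl rose by 1.28 ± 0.10 on the log2 scale and Nr1d2 by 0.57 ± 0.20, in 6 and 5 of 6 mice (edgeR adjusted p 6.47e-06 and 0.0334). All 3 Period genes were lower in 6 of 6 mice: Per3 by -1.12 ± 0.16, Per2 by -0.66 ± 0.11 and Per1 by -0.64 ± 0.10. With the index as a covariate, Arntl (1.07), Per3 (-1.11), Per2 (-0.57) and Per1 (-0.45) kept their calls and Nr1d2 (-0.15) did not, while Clock (-0.55) and Dbp (0.29) came to pass (edgeR adjusted p 0.000674 and 0.0201). Nr1d2 also lost its call without any 1 of BO17, BO18, BO21 and BO24.

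In cerebellar vGluT2 neurons 4 of 10 passed, against 57.2% of 14329 genes. Cry1 rose by 0.55 ± 0.12 on the log2 scale in 7 of 7 mice and Dbp fell by 0.53 ± 0.16 in 6 of 7 (edgeR adjusted p 0.00268 and 0.0143). Clock (1.08) and Nr1d2 (0.94) were higher in 5 and 7 of 7 mice, and with the index stood at -0.06 and 0.20. Of the 7 mice 4 were HD. Over all libraries of each group, not these mice alone, mean Clock was 88.1 CPM in control and 30.0 in HD total RNA. In the IPs of each genotype it was 86.6 and 95.6. Mean Nr1d2 was 206 and 84.7 CPM in total RNA, against 276 and 194 in the IPs. Cry1 kept its call with the covariate (0.50, edgeR adjusted p 0.0301) and Dbp did not (-0.09).

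Whether these enrichments differ between neuron types was tested directly. Across the 4 cerebral types, the IP to total RNA ratio of 6 of 10 clock genes differed, against 65.3% of 14867 genes. The 6 were Nr1d1, Dbp, Per3, Clock, Arntl and Cry1, with edgeR adjusted p from 1.54e-09 for Nr1d1 to 0.0443 for Cry1. Relative to Gad2, the Nr1d1 ratio was -1.04 in PV and -1.34 in SST but 0.35 in vGluT2 neurons on the log2 scale, and the Dbp ratio was -1.76, -1.90 and -0.70. The Per3 ratio was 1.26 higher in PV and 1.51 higher in SST than in Gad2 neurons. Per3 in total RNA itself stood at -0.75 in PV and -0.54 in SST against the Gad2 line, so part of these ratios lies in the total RNA. All 6 passed also with the index as a covariate.

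Between the cerebellar types 5 of 10 ratios differed, against 40.2% of 14349 genes. The Period genes and Cry1 were richer in vGluT2 than in Gad2 neurons: Per3 by 1.56 ± 0.28, Per2 by 0.90 ± 0.25, Per1 by 0.73 ± 0.26 and Cry1 by 0.62 ± 0.15 on the log2 scale. Per1 lost this call without any 1 of BO17, BO18, BO21, BO24 and BQ20, with 0.51 as its lowest value. Genotypes were pooled here. Over all libraries of each group, mean Per3 in vGluT2 total RNA was 32.9 CPM in control and 12.7 in HD libraries. In the IPs it was 31.0 and 24.1, so part of the Per3 ratio lies in the total RNA of HD mice. Arntl had the opposite sign, -0.88 ± 0.22 (edgeR adjusted p 0.00477 for Arntl and 0.00031 for Per3). In the cerebellum the activator Arntl was therefore relatively high where the Period repressors were relatively low.

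Comparing cerebellum with cerebrum of the same mice asks how region sets the clock genes of 1 Cre line. In Gad2 neurons 7 of 10 differed, against 66.4% of 14472 genes. Arntl rose by 1.41 ± 0.07 on the log2 scale, Cry1 by 0.76 ± 0.06 and Nr1d2 by 0.67 ± 0.11, each in 12 of 12 mice (edgeR adjusted p 1.26e-10, 4.22e-08 and 5.14e-05). Clock (0.64) and Nr1d1 (0.36) were higher in 11 of 12 mice, and Per1 (-0.59) and Per2 (-0.66) were lower in 12 of 12.

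In vGluT2 neurons 6 of 10 differed, against 74.2% of 14264 genes. Cry1 rose by 1.92 ± 0.08 on the log2 scale in 11 of 11 mice (edgeR adjusted p 1.62e-11), and Clock (1.02), Nr1d2 (1.03) and Per3 (0.84) were higher in 11 of 11. Dbp fell by 0.37 ± 0.09 in 10 of 11 mice, and Nr1d1 was higher by 0.19 ± 0.07 in 8 of 11 (edgeR adjusted p 0.00203 and 0.0254). With the index as a covariate these calls were kept in both lines except that of Nr1d1 in vGluT2 neurons (edgeR adjusted p 0.13), which was also lost without BQ20 or BQ35. In vGluT2 neurons 4 of 10 passed with no mouse block and 4 in control mice alone, where Nr1d1 and Dbp did not (edgeR adjusted p 0.0995 and 0.0515, then 0.0559 and 0.26).

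Total RNA of the Cre lines asks whether whole tissue differed between the lines themselves. In the cerebrum 0 of 10 clock genes differed by edgeR, against 0.195% of 14880 genes, with 2 at an unadjusted p under 0.05. The likelihood ratio test of DESeq2 called 1, Per3 (adjusted p 0.00995), against 2.37% of all genes. In the cerebellum 0 of 10 differed by edgeR, against 0.0138% of 14477 genes, with 1 at an unadjusted p under 0.05 and 0 by DESeq2. Per3 in the cerebrum had an edgeR adjusted p of 0.114 (0.0178 with the index as a covariate, where 7.28% of all genes passed). Its log2 difference of PV from Gad2 was -0.75. It ran from 7.37 to 16.6 CPM in 6 PV libraries and from 15.9 to 26.7 in 6 Gad2 libraries.

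The main question of the series is what the HD mutation does in each neuron type. In the IPs no clock gene passed the test in any of the 6 types. The one with the most uniform direction was Per3, whose fitted log2 difference was below 0 in all 6 IP types and in both total RNA comparisons.

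In SST neurons Per3 was 22.0, 26.2, 22.8, 27.8 and 25.1 CPM in the 5 control libraries and 20.6, 19.4, 18.4 and 15.8 CPM in the 4 HD libraries. Every HD library lay below every control library. The HD mice share a numbering series with 2 of the controls, those at 22.0 and 26.2 CPM, while the other 3 controls came from another series. With the 6 mice of the shared series alone the log2 difference was -0.36 ± 0.21 and did not pass. The log2 difference was -0.43 ± 0.15, with an edgeR adjusted p of 1. In SST IPs 0 of 10 clock genes passed edgeR's test, against 0% of 14689 genes; 1 had an unadjusted p under 0.05, and DESeq2 called 0 of the 10 and 2 genes of all.

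In PV neurons Per3 was 12.5, 18.4 and 20.999 CPM (lowest, median and highest) in 6 control libraries and 11.9, 11.5, 14.2, 16.3 and 12.6 CPM in 5 HD libraries. The HD libraries all lay below the control median, and the lowest control lay among them. The log2 difference was -0.41 ± 0.14, with an edgeR adjusted p of 0.888. In PV IPs 0 of 10 passed edgeR's test, against 0.0408% of 14713 genes; 1 had an unadjusted p under 0.05, and DESeq2 called 0 of the 10 and 42 genes of all.

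In cerebral vGluT2 neurons Per3 was 14.5, 17.2 and 20.4 CPM in 6 control libraries and 7.63, 12.6 and 15.1 CPM in 6 HD libraries (lowest, median and highest). The groups overlapped only between 14.5 and 15.1 CPM. The log2 difference was -0.43 ± 0.15, with an edgeR adjusted p of 0.65. In those IPs 0 of 10 passed edgeR's test, against 0% of 14354 genes; 1 had an unadjusted p under 0.05, and DESeq2 called 0 of the 10 and 25 genes of all.

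In cerebral Gad2 neurons Per3 was 8.94, 12.4 and 14.9 CPM in 6 control libraries and 9.96, 10.9 and 12.97 CPM in 6 HD libraries, a log2 difference of -0.15 ± 0.13 with full overlap. Nr1d2 had the lower p there: 90.1, 124 and 141 CPM in control and 71.6, 85.8 and 131 CPM in HD libraries, a log2 difference of -0.38 ± 0.16 (edgeR adjusted p 0.536). The low-GC index ran with it, with a median of -0.84 in HD and -0.01 in control libraries, and with the index as a covariate the Nr1d2 difference was -0.11. In cerebral Gad2 IPs 0 of 10 passed edgeR's test, against 0.0279% of 14342 genes; 1 had an unadjusted p under 0.05, and DESeq2 called 0 of the 10 and 75 genes of all.

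In cerebellar Gad2 neurons Per3 was 8.36, 12.4 and 21.9 CPM in 6 control libraries and 7.41, 10.1 and 13.8 CPM in 6 HD libraries, with overlapping groups and a log2 difference of -0.40 ± 0.23. In those IPs 0 of 10 passed edgeR's test, against 0.0142% of 14098 genes; 0 had an unadjusted p under 0.05, and DESeq2 called 0 of the 10 and 22 genes of all.

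In cerebellar vGluT2 neurons Per3 was 32.7, 28.3, 27.9, 37.5 and 28.8 CPM in 5 control libraries and 20.4, 24.2 and 28.4 CPM in 6 HD libraries. All HD libraries but 1 lay below every control library. The log2 difference was -0.35 ± 0.12, with an edgeR adjusted p of 0.168. Nr1d2 was 292, 347, 246, 263 and 230 CPM in the 5 control libraries against 125, 206 and 261 CPM in 6 HD libraries, a log2 difference of -0.49 ± 0.16 with the same adjusted p by edgeR.

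This was the neuron type with the most HD differences among all genes, and still 0 of 10 clock genes passed edgeR's test, against 2.09% of 13487 genes. There 4 of the 10 had an unadjusted p under 0.05 (Per3, Nr1d2, Arntl and Cry2), as did 2082 of the 13487 genes, and DESeq2 called 0. Arntl and Cry2 had the opposite sign to Per3, with log2 differences of 0.36 ± 0.14 and 0.27 ± 0.12.

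Over the 33 HD IP libraries, Per3 was at or below its own control group's median in 30, made up of 11 of 12 cerebellar and 19 of 21 cerebral libraries. Leaving out each mouse in turn kept the sign in every comparison, with log2 differences from -0.50 to -0.34 in SST, from -0.50 to -0.36 in PV and from -0.40 to -0.29 in cerebellar vGluT2 IPs. They ran from -0.49 to -0.33 in cerebral vGluT2, from -0.50 to -0.19 in cerebellar Gad2 and from -0.22 to -0.09 in cerebral Gad2 IPs. For comparison, Clock was at or below the control median in 16 of 33 HD IP libraries, Dbp in 18, Nr1d1 in 24 and Nr1d2 in 26, while Cry1 was above it in 26. The cerebral and cerebellar IPs of the Gad2 and vGluT2 lines share mice, so these counts are a description.

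Total RNA asks the same question of whole tissue. In the cerebrum 0 of 10 clock genes passed edgeR's test, against 0.652% of 14880 genes; 2 had an unadjusted p under 0.05, Per3 and Per1, and DESeq2 called 1, which was Per3, against 1.43% of all genes. Per1 had a log2 difference of -0.23 ± 0.11 (edgeR adjusted p 0.681) and lay below all controls of its line in 8 of 12 HD libraries, with all 3 PV and all 3 vGluT2 ones among them. Within lines, Per3 was 16.9, 20.2 and 26.7 CPM in control and 15.9, 16.2 and 17.4 in HD Gad2 libraries, and 13.7, 14.5 and 16.6 against 7.37, 7.57 and 10.6 CPM in the PV line. In the SST line it was 10.4, 15.0 (median) and 21.003 CPM in 4 control libraries and 8.06, 12.0 and 13.8 CPM in 3 HD libraries, and in the vGluT2 line 16.8, 17.6 and 20.7 against 13.2, 15.1 and 16.0 CPM. The 3 PV and the 3 vGluT2 HD libraries lay below all controls of their line, and all 12 HD libraries were at or below their control median.

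The fitted log2 difference of Per3 in cerebral total RNA was -0.45 ± 0.12, with an edgeR adjusted p of 0.104. It passed with the low-GC index as a covariate (-0.48 ± 0.11, edgeR adjusted p 0.00889), where 3.17% of all genes passed, against 0.652% in the main fit. By DESeq2 it passed too (adjusted p 0.0245), where 1.43% of all genes did. Without control mouse BR10 of the SST line it also passed (edgeR adjusted p 0.0387), where 159 genes of all did, against 97 in the main fit. Within the lines it was -0.36 in Gad2, -0.77 in PV, -0.45 in SST and -0.23 in vGluT2. These are the comparisons in which Per3 came nearest to a call outside the cerebellum.

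In cerebellar total RNA 2 of 10 clock genes fell, Per3 and Nr1d2, against 25.6% of 14477 genes, so the share is no higher than in the background. DESeq2 called 3, with Clock, against 34.4% of all genes. In the vGluT2 line Per3 was 39.0, 36.6, 27.5 and 28.5 CPM in 4 control libraries and 14.5, 12.0, 11.2 and 12.9 CPM in 4 HD libraries. In the Gad2 line it was 27.4, 30.7 and 27.0 CPM in control and 29.7, 25.5 and 23.9 CPM in HD libraries. The vGluT2 groups were far apart and the Gad2 groups overlapped.

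Nr1d2 had the same shape, with 266, 189, 155 and 214 CPM in vGluT2 controls and 47.1, 107, 65.4 and 119 CPM in vGluT2 HD libraries. In the Gad2 line Nr1d2 was 110, 238 and 119 CPM in control and 128, 72.6 and 188 CPM in HD libraries. Clock in the vGluT2 line was 102, 91.9, 65.4 and 93.0 CPM in control against 20.7, 40.3, 23.7 and 35.2 CPM in HD libraries. All 3 genes were apart in the vGluT2 line and mixed in the Gad2 line. In the vGluT2 line Nr1d1 and Cry2 were apart in the other direction, with all 4 HD libraries above all controls and means of 262 against 156 and 161 against 125 CPM.

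The fitted log2 differences over both lines were -0.84 ± 0.20 for Per3 and -0.85 ± 0.29 for Nr1d2 (edgeR adjusted p 0.0268 and 0.0465), below the control median in 6 and 5 of 7 HD libraries, with Clock just outside at -0.92 ± 0.34 (adjusted p 0.0587). Within lines, Per3 was -1.39 in vGluT2 (edgeR adjusted p 0.000158) and -0.11 in Gad2, where 7565 and 0 genes of all passed. The low-GC index moved with the vGluT2 difference, from -0.32 to 0.49 in controls and from -1.67 to -1.04 in HD libraries. With the index as a covariate no clock gene passed: Nr1d2 was -0.07, Clock 0.03 and Per3 -0.49 ± 0.22 (edgeR adjusted p 0.325). Nr1d1, higher in HD without the covariate, changed sign with it, and its r with the index was -0.83 over the 14 libraries. Leaving out 1 mouse at a time, Per3 lost its call in 8 of 14 fits and Nr1d2 in 11 of 14. Without HD mouse BQ42 the genes called fell from 3704 to 92, and without HD mouse BO23 they were 7456.

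**Figure D2:**
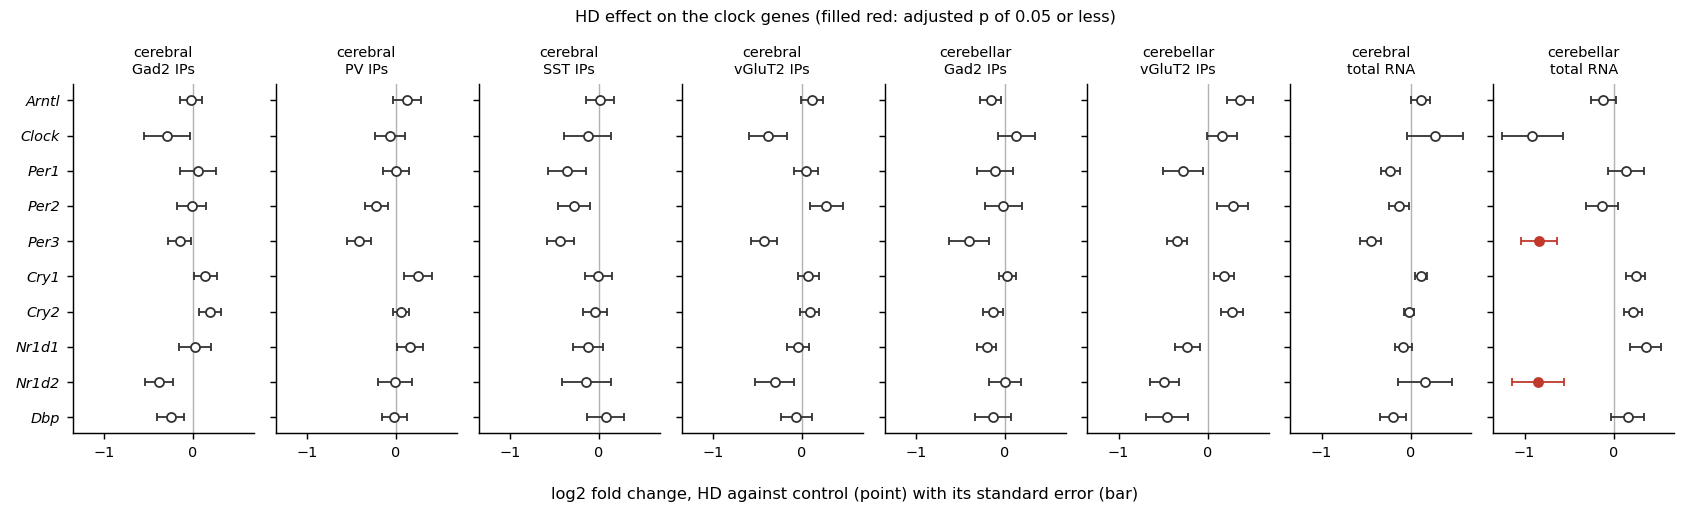
Log2 fold change of HD against control (points) with its standard error (bars) for the 10 clock genes in 6 IP types and both total RNA comparisons; filled red points have an edgeR adjusted p of 0.05 or less. Per3 lies left of 0 in all 8 panels, and the 2 filled points are Per3 and Nr1d2 in cerebellar total RNA.

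Whether the HD effect differed between groups was tested as an interaction. Between the cerebellar types 0 of 10 clock genes passed edgeR's test, against 0.107% of 13971 genes, with 2 at an unadjusted p under 0.05, and among the 4 cerebral types 0 of 10, against 0% of 14678 genes, with 0 under 0.05. Between regions 0 of 10 passed in Gad2 neurons, against 0% of 14472 genes, and 0 of 10 in vGluT2 neurons, against 0.224% of 14264 genes, each with 1 under 0.05. DESeq2 called 0 of the 10 in all 4 interactions, where of all genes it called 65 between the cerebellar types, 2 among the cerebral types, and 23 and 216 between regions in Gad2 and vGluT2 neurons. For Per3 the interaction was 0.01 ± 0.27 between the cerebellar types, -0.19 ± 0.29 between regions in Gad2 and 0.11 ± 0.19 in vGluT2 neurons on the log2 scale. Among the cerebral types the Per3 terms against Gad2 were -0.26 in PV, -0.26 in SST and -0.29 in vGluT2 neurons, given here without errors. A different HD effect on Per3 between neuron types was thus not detected, within the errors given.

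The tie of Clock, Nr1d2 and Dbp to library composition was measured within each IP type, with both values centred on genotype. Clock correlated with the low-GC index in all 6 types, with Pearson's r from 0.92 to 0.98, Spearman's rho from 0.60 to 0.94 and permutation p adjusted over 60 tests from 0.000926 to 0.0128. By rho Clock did not pass in PV IPs (permutation p adjusted 0.182). Without the 2 libraries farthest from the median index, r for Clock was 0.60, in PV IPs, to 0.98. Nr1d2 passed in all 6 types too, with r from 0.86 to 0.99, rho from 0.83 to 0.96 and r from 0.70 to 0.95 without 2 libraries.

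Dbp passed in 3 types with the opposite sign, though in PV IPs not by rho (permutation p adjusted 0.0992), its r running from -0.91 to -0.30 over the 6, and Cry2 passed in 2 (by rho in SST IPs alone, with permutation p adjusted 0.0559 in cerebral Gad2 IPs), Per1 in 1 and Nr1d1 in 1. Arntl, Per2, Per3 and Cry1 passed in 0 of 6 by the permutation test. For Per3, the gene with the most uniform HD direction, r with the index ran from -0.22 to 0.62. Without the 2 farthest libraries its r ran from -0.50 in PV IPs to 0.74 in cerebellar Gad2 IPs. A tie of Per3 to composition in single types therefore stays possible. These 60 correlations were chosen once values were known, and the part of composition in the spread of each clock gene was not tested. The counts stand without the share of all genes that pass, and the index itself rests on 2606 genes at each end of GC content.

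**Figure D3:**
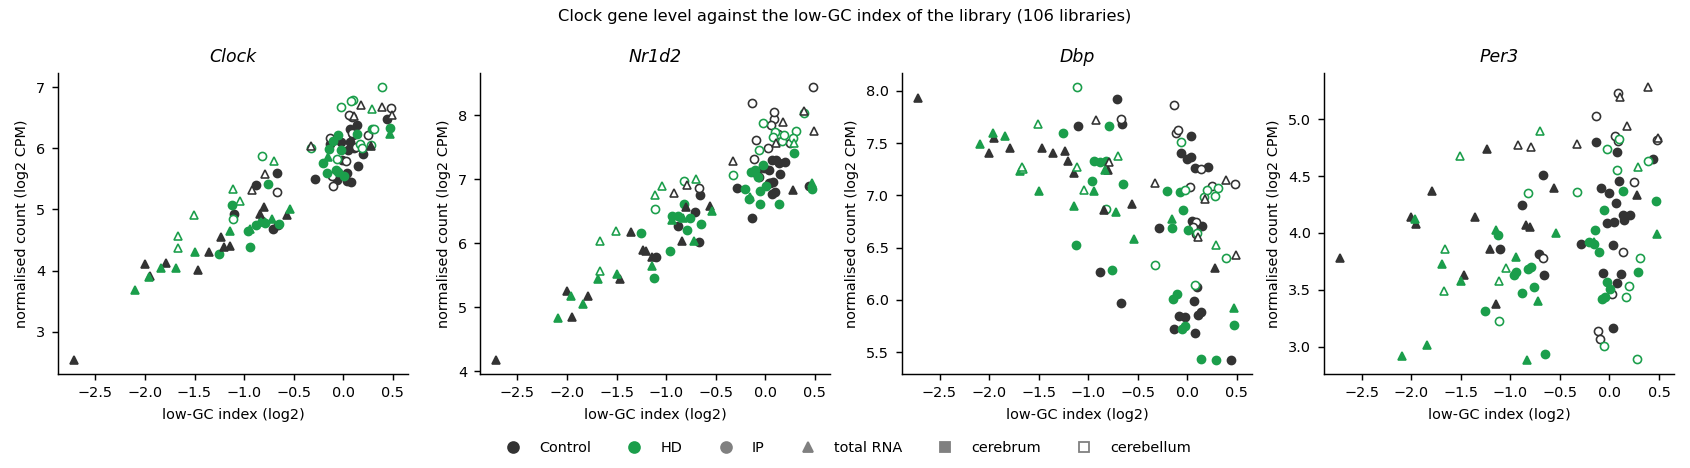
Normalised count (log2 CPM) of Clock, Nr1d2, Dbp and Per3 against the low-GC index (log2) in 106 libraries; circles are IPs, triangles total RNA, filled symbols cerebrum, open symbols cerebellum, dark grey control and green HD. Clock and Nr1d2 climb with the index, Dbp tends downward, and Per3 shows no such line over the pooled libraries.

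Variation between mice was further described by the spread of log2 CPM within a group. Clock had a larger SD than 64.9% to 94.5% of genes in the 12 IP and total RNA sets, and Nr1d2 than 49.5% to 94.8%. Cry2 was among the steadier genes, above 1.98% to 28.9% of genes, and Cry1 ran from 4.66% to 60.6%, the highest in PV IPs. Per3 spanned 6.45% in SST IPs to 77.5% in SST total RNA. Arntl spanned 9.46% to 62.2%, Per1 12.4% to 78.5%, Per2 21.6% to 66.4%, Nr1d1 8.22% to 66.5% and Dbp 45.3% to 84.8%. Among genes of like level, Clock stood above 74.6% to 96.3% and Nr1d2 above 72.1% to 98.2%. There Dbp ran from 64.3% to 93.9% and Cry2 from 4.28% to 48.1%.

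Whether the cerebrum and cerebellum of 1 mouse deviated together from their genotype's mean was tested for 10 genes in 2 lines. Of these 20 tests 1 passed, a count that stands without the share of all genes. Per1 passed in the Gad2 line with Pearson's r of 0.76 over 12 mice (exact permutation p 0.00228, adjusted 0.0456 over 20 tests) and Spearman's rho of 0.83 (adjusted 0.0385). That test takes the mice as independent. Control and HD mice of this line have neighbouring numbers, and what they share was not tested. Without the 2 mice farthest from the median r was 0.74. The call was lost with no centring on genotype (r 0.75, adjusted permutation p 0.0934), with DESeq2 size factors (0.73, 0.133) and in 6 control mice alone (0.71, 0.521). In 6 HD mice alone it was kept by r (0.89, 0.0278) and not by rho (adjusted 0.111). Dbp had r of 0.69 over 11 vGluT2 mice (exact permutation p 0.0314, adjusted 0.229) and 0.30 over 12 Gad2 mice. Over both genotypes no gene passed in the vGluT2 line, while in 6 HD mice alone Cry2 in the Gad2 line (r 0.94) and Nr1d2 in the vGluT2 line (r 0.95) passed by r (adjusted permutation p 0.0278 each) and not by rho.

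Correlation with Dbp, a strongly rhythmic output gene in many tissues, was asked of the other 9 genes in 6 IP types. Of these 54 tests 2 passed: Nr1d2 in cerebral Gad2 IPs, with r of -0.86 and rho of -0.83 (permutation p adjusted 0.0479), and Clock in cerebellar Gad2 IPs, with r of -0.92 and rho of -0.73 (adjusted 0.0431). Without 2 libraries r was -0.80 and -0.78. By rho neither passed (permutation p adjusted 0.12 and 0.16), and 0 of 54 passed without any 1 of the Gad2 mice BO18, BO19, BO2, BO20, BO21, BO22, BO23, BO3 and BO8. With no centring on genotype Nr1d2 in cerebral Gad2 IPs stood at r of -0.39 (permutation p adjusted 0.411), while Clock and Nr1d2 in cerebellar Gad2 and Nr1d2 in PV IPs passed. The 2 first calls each pair a GC-poor gene with the GC-rich Dbp, and their count stands without the share of all genes that pass. With the index removed from both genes, r of those 2 pairs was -0.34 and -0.45 and neither passed, while a different pair did, Nr1d2 in cerebellar vGluT2 IPs with r of 0.90 (adjusted 0.0262 by permutation), though not by rho (adjusted 0.131).

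The genes whose pattern was most like Dbp, by mean r over the 6 IP types, were Thra (0.87), Rnf167 (0.86), Npdc1 (0.86), Ccdc106 (0.85), Rbck1 (0.85), Car11 (0.85), Prkcz (0.85), Pdxp (0.85), Dnal4 (0.85) and Mrps26 (0.84), of 13005 genes. The rule left the clock genes out of this list. Ranked with all genes, Nr1d1, the nearest clock gene to Dbp, stood at place 3001 with a mean r of 0.41. The 10 genes had a median GC content of 57.6%, against 49.8% of all genes compared, and over genes, which are not independent replicates, mean r with Dbp and GC content had rho of 0.72. Clock ranked 514 from the bottom with -0.69, and Nr1d2 ranked 1484 from the bottom with -0.59.

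A further list of 30 clock genes, which does not hold the 10 above, has kinases and other loop members and was counted in the HD comparisons. By edgeR 0 of 30 passed in the 4 cerebral IP types, in cerebellar Gad2 IPs and in cerebral total RNA, with 1 to 6 at an unadjusted p under 0.05 and 1 called by DESeq2, in cerebral Gad2 IPs. In cerebellar vGluT2 IPs 3 of 30 passed, against 2.09% of all genes, and DESeq2 called 6, against 4.93%. With the low-GC index as a covariate 5 of 30 passed, against 4.27% of all genes. With the replicate block, on 10 libraries, 1 of 30 passed, against 0.807%. Of the 3 in the main fit, Bhlhe40, a repressor of E-box genes, fell by 0.74 ± 0.13 and Hlf, a PAR bZIP relative of Dbp, by 0.65 ± 0.14 on the log2 scale (edgeR adjusted p 0.00926 and 0.0254). The median log2 difference of the list was -0.16 there, against -0.01 over all genes. In cerebellar total RNA 7 of 30 passed, against 25.6% of all genes and with 11 called by DESeq2: Csnk1d (0.24) and Nono (0.39) rose, and Rorb (-1.24), Rora (-1.04), Fbxw7 (-0.67), Arntl2 (-0.58) and Hlf (-0.53) fell, with a median of -0.24. Those calls were 1 of 30 with the low-GC index as a covariate, 0 with the replicate block, 0 in the Gad2 line alone and 13 in the vGluT2 line alone.

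Of 6 suprachiasmatic markers, of which 2 to 6 could be tested in each of the 8 HD comparisons, 2 passed there, in 1 comparison each by edgeR. Rgs16, which is rhythmic in that nucleus, fell by 1.12 ± 0.14 on the log2 scale in cerebellar vGluT2 IPs (edgeR adjusted p 0.000621), where 2.09% of all genes passed. That nucleus is not part of the cerebellum, so this call does not concern it. Avp fell by 1.76 ± 0.41 in cerebral total RNA (edgeR adjusted p 0.0432), where 0.652% of all genes passed. Which cells or nuclei the Avp RNA came from was not tested. Of 9 glucocorticoid-responsive genes, which share regulators with Per1, Mt1 alone passed, lower by -0.55 ± 0.17 in cerebellar total RNA (edgeR adjusted p 0.0343), where 25.6% of all genes passed. In the other 7 HD comparisons 0 passed by edgeR, with 0 to 4 at an unadjusted p under 0.05 and 0 to 1 called by DESeq2. Of the immediate early genes 0 passed in all 8 HD comparisons by edgeR, with 0 to 8 at an unadjusted p under 0.05 and 0 to 2 called by DESeq2.

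Promoter windows of the clock genes were searched for 4 known motifs, and none of these lay in more than 4 genes. RefSeq windows of 300 bases, 250 before to 50 after a start, were available for 9 of the 10, all but Per2, on GRCm38, with 13 windows in all since Per1 and Arntl have 2 and Clock 3. They were searched on both strands for the E-box CACGTG, the variant CACGTT, the D-box TTATGTAA and the ROR element core AGGTCA. Of 32851 windows in the table, 7.15% held CACGTG, 4.685% CACGTT, 0.9376% TTATGTAA and 16.26% AGGTCA. The E-box lay in Cry1 and Per1, the variant in Cry1, Cry2 and Nr1d1, the D-box in Per3, the ROR core in Arntl, Clock, Per1 and Nr1d2, and none of them in Dbp. For Arntl, Clock and Per1 the matches lay in 1 window each. A match is a description of letters and not a site.

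Shown are the windows of Per3, the gene with the most uniform HD direction, of Cry1, which separated the regions most widely in vGluT2 neurons, and of Per1, whose same-mouse correlation passed in the Gad2 line. Capitals mark the matches, on either strand. Per3 holds 2 D-boxes and no E-box in chr4:151044616-151044915 on the minus strand, starting at -205 and -158 from the transcript start. Cry1 holds CACGTG at -60 and the variant at -79 in chr10:85185005-85185304 on the minus strand, and Per1 holds CACGTG at -166 and the ROR core at -137 in chr11:69098699-69098998 on the plus strand.
Per3: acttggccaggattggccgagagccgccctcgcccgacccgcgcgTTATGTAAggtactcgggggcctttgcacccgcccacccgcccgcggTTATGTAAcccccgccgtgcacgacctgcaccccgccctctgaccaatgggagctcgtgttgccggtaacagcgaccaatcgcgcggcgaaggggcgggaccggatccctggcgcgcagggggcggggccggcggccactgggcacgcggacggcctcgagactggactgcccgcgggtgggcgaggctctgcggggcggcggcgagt
Cry1: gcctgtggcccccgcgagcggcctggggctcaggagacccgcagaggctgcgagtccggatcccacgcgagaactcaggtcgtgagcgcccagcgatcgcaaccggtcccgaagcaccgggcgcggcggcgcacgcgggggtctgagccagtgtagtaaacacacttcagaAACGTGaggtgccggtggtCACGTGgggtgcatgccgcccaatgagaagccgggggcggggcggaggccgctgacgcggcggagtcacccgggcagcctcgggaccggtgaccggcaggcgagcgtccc
Per1: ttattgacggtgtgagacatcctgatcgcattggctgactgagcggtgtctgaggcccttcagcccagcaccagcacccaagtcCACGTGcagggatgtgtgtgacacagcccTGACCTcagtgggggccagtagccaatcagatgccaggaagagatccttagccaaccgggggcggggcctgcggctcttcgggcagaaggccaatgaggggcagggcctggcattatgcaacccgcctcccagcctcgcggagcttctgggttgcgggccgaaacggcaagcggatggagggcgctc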

How the data were processed

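The deposited table holds expected counts per gene for 106 libraries, made by the authors with nf-core/rnaseq 3.0 (STAR and Salmon) on GRCm38.p6 with ERCC and HA tag sequences added; the annotation release and the strand setting of the counting are not stated. Of the values 8.57% were not whole, and all were rounded. Gene IDs were matched to GENCODE M21, 55141 of 55401 without their version. The 92 spike-ins were left out. The 10 members, the other gene lists and the tests were chosen with earlier results of these data known.

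From the deposited counts, CPM (scaled with TMM) and RPKM were computed with edgeR 4.0.16 in R 4.3.3. Each comparison was fitted on its own libraries with edgeR's quasi-likelihood test over protein-coding genes with a mean count above 10, with Benjamini-Hochberg adjustment over all genes tested and calls at 0.05. IP and region comparisons had mouse as a block, and total RNA comparisons of genotype had the Cre line as a term. Log2 fold changes are ± SE. DESeq2 1.42.0 was the second tool. The count of mice showing a direction used TMM-scaled log2 CPM, and the count of HD libraries the control median of their own group. Correlations used log2 CPM centred on genotype, with two-sided permutation p within genotype, exact for groups of up to 9. The rule for genes most like Dbp was the mean Pearson's r over 6 IP types, of which the top 10 are named, with the clock genes left out. The GC content is that of the longest GENCODE transcript. The scripts were tested on simulated counts.

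Alternatives were DESeq2, its size factors in edgeR, no filter on counts, all gene types, a replicate block, no mouse block, no centring, control or HD mice alone, SST mice of 1 numbering series, leaving out each mouse or the re-sequenced libraries, and each line alone. The low-GC index as a covariate was chosen after seeing the data. Library depth sets the counting error only: the lowest Per3 count was 132.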

Additional observations from a re-analysis of the deposited data

Results flagged for a closer look

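Of 150 combinations of a clock gene and a group of 4 or more libraries, 12 held 1 library far from the others, where chance sets apart about 1 in 20 groups. For the activators, Arntl was 28.9 CPM in control library 2 of the cerebral Gad2 IPs, with the nearest at 23.2, and 18.6 CPM in control library 1 of the SST IPs, with the others from 20.3. Clock was 33.5 CPM in HD library 4 of the SST IPs, with the others from 74.6.

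Among the repressors, Per1 was 108 CPM in HD library 1 of cerebellar vGluT2 total RNA, with the nearest at 60.9, and Per2 was 12.2 CPM in control library 4 of the same set, with the others from 17.1. Cry1 was 18.9 CPM in control library 1 of the cerebral Gad2 IPs, with the nearest at 24.5. Nr1d1 was 329 CPM in the same HD library 1 of cerebellar vGluT2 total RNA that was high for Per1, with the nearest at 244. Nr1d2 was 77.3 CPM in control library 6 of the PV IPs, with the nearest at 135, and 92.3 CPM in HD library 4 of the cerebellar Gad2 IPs, with the nearest at 176.

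Dbp was 76.9 CPM in that control library 6 of the PV IPs, the highest of its group, with the nearest at 63.6. Dbp was also 233 CPM in control library 1 of the cerebellar vGluT2 IPs, with the nearest at 138, and 133 CPM in HD library 4 of cerebellar vGluT2 total RNA, with the others from 153. The libraries of mice BP31 and BQ21 were apart for 2 genes each. The PV, cerebellar Gad2 and SST IP libraries with low Nr1d2 or Clock, of BP31, BO19 and BR15, had the lowest low-GC index of their groups, -0.89, -1.11 and -1.12, and its part in these values was not tested.

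The enrichment of IP over total RNA differed between neuron types for some clock genes by a test of the difference. Across the 4 cerebral types the edgeR adjusted p was 0.0176 for Arntl, 0.00129 for Clock, 1.69e-06 for Per3, 0.0443 for Cry1, 1.54e-09 for Nr1d1 and 2.12e-07 for Dbp. Between cerebellar vGluT2 and Gad2 neurons it was 0.00477 for Arntl, 0.0354 for Per1, 0.00871 for Per2, 0.00031 for Per3 and 0.00289 for Cry1. Per1 lost that call without any 1 of BO17, BO18, BO21, BO24 and BQ20. The log2 sizes between the cerebellar types were -0.88, 0.73, 0.90, 1.56 and 0.62 in that order.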

How the results depend on the processing

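Over the alternatives to each comparison's count of clock genes or of all genes, 553 values kept their side, 35 were higher and 91 lower past a threshold or 1.5 times. For single clock genes 1013 values kept their direction and side, 35 came to pass, 100 no longer passed and 21 changed sign. Unless a clause says otherwise, the cause was not tested.

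With DESeq2, clock genes called were 1 in cerebral and 3 in cerebellar total RNA (HD effect), 5 for IP against total RNA in cerebral Gad2 mice and 1 (likelihood ratio test) among cerebral Cre lines. Of all genes, HD calls were 75 (cerebral Gad2 IPs), 42 (PV), 2 (SST), 25 (cerebral vGluT2), 22 (cerebellar Gad2), 665 (cerebellar vGluT2) and 213 (cerebral total RNA). With its size factors in edgeR, cerebellar Gad2 IPs had 1 gene and the same-mouse correlation 0.

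With the low-GC index as a covariate, chosen after seeing the data, HD calls of clock genes were 0 in cerebellar and 1 in cerebral total RNA. Cerebral Cre lines had 1, where 1084 genes of all passed (7.28%), against 29 in the main fit. For IP against total RNA, PV had 2, SST 0, cerebral vGluT2 2 and cerebellar vGluT2 2. Of all genes, cerebral Gad2 IPs had 15 called for HD, PV 16, cerebral vGluT2 5 and cerebellar vGluT2 576, with 471 in cerebral and 120 in cerebellar total RNA. With the index removed 1 correlation with Dbp passed, another pair than the 2 that passed before.

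Signs that changed with that covariate were, for HD in cerebellar total RNA, Clock (0.026) and Nr1d1 (-0.088). For IP against total RNA they were Arntl in cerebral Gad2 (-0.021), PV (-0.14), SST (-0.17) and cerebellar vGluT2 (-0.10), Per1 in PV (0.028), Per3 in SST (-0.31) and cerebellar vGluT2 (-0.16) and Cry1 in SST (0.18). Nr1d2 did in SST (-0.77), cerebral vGluT2 (-0.026) and cerebellar Gad2 (-0.15), Clock in cerebral vGluT2 (-0.085), cerebellar Gad2 (-0.55) and cerebellar vGluT2 (-0.060), and Dbp in cerebral vGluT2 (0.30) and cerebellar Gad2 (0.29).

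Without a mouse block, over all libraries, IP against total RNA gave 5 in cerebral Gad2 mice, and in cerebellar Gad2 mice Clock (-0.030) and Dbp (0.20) changed sign. With no filter on low counts cerebellar total RNA had 1 clock gene and cerebral vGluT2 IPs 1 gene of all. With all gene types these were 1 in cerebellar total RNA and 0 of all genes in cerebellar Gad2 IPs. Leaving out re-sequenced libraries, cerebral vGluT2 IPs gave 1 gene and those of cerebellar Gad2 gave 0. In cerebellar total RNA the Gad2 line alone had 0 clock genes and 0 of all, with Nr1d1 at -0.16, and the vGluT2 line alone 5 and 7565. Each of the 4 lines alone had 0 genes in cerebral total RNA, with fewer libraries. Same-mouse correlations passing were 0 with no centring, 0 in controls and 3 in HD mice.

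With the replicate block, which pairs control and HD libraries of the same number, cerebellar total RNA had 0 clock genes called and 9 genes of all. Libraries with no partner could not be used, which left 8 of 11 in PV, 8 of 9 in SST, 10 of 12 in cerebral vGluT2, 10 of 12 in cerebellar Gad2 and 10 of 11 in cerebellar vGluT2 IPs and 24 of 25 in cerebral total RNA, so block and libraries changed together. Of all genes in IPs, cerebral Gad2 had 9 called, PV 0, SST 1, cerebellar Gad2 0 and cerebellar vGluT2 109. Of the further list of 30 clock genes, 1 was called in cerebellar vGluT2 IPs, against 3 in the main fit, and 0 in cerebellar total RNA, against 7. The block changed no other count of the 10 clock genes called. The pairing was checked by correlating paired libraries, and r was above 0.1 in 4 of 6, 1 of 4, 1 of 4, 3 of 5, 3 of 5 and 2 of 5 pairs of the IP types (cerebral Gad2, PV, SST, cerebral vGluT2, cerebellar Gad2 and vGluT2), 8 of 12 of cerebral and 3 of 7 of cerebellar total RNA. Median r of the pairs was 0.39 in cerebral Gad2 IPs, 0.29 in cerebellar Gad2 IPs and 0.29 in cerebral total RNA. It ran from -0.08 to 0.16 in the other comparisons. Whether the numbers mark pairs, in the Gad2 line above all, was thus not settled. The main fits did not use them.

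Leaving out each mouse in turn, clock genes called for HD were 0 to 6 in cerebellar total RNA, 0 to 1 in cerebral total RNA (1 without BR10) and 0 in every IP type. In cerebellar total RNA the 6 came without BO23, and Per3 lost its call without any 1 of BO21, BQ20, BQ32, BQ33, BQ35, BQ36, BQ41 and BQ42. Nr1d2 lost its call in 11 of 14 such fits, the same 8 and those without BO18, BO22 and BQ21. For IP against total RNA, cerebral Gad2 had 1 to 3, PV 5 to 8 and cerebral vGluT2 1 to 4, cerebral Cre lines 0 to 1, and correlations with Dbp 0 to 6. Of all genes, HD calls in IPs were 3 to 20 (cerebral Gad2, 20 without BO19), 0 to 4 (PV), 0 to 1 (SST), 0 to 1 (cerebral vGluT2), 0 to 3 (cerebellar Gad2) and 154 to 275 (cerebellar vGluT2). They were 67 to 159 in cerebral total RNA (159 without BR10) and 92 to 7456 in cerebellar total RNA, with the lowest without BQ42.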

Other observations

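Immediate early genes respond, like Per1, quickly to neuronal activity and signals. In SST IPs all 10 listed genes had a log2 difference of HD against control below 0, with a list median of -0.74 against -0.01 over all genes, and 8 of the 10 had an unadjusted p under 0.05, as did 216 of 14689 genes. Of the 5 SST controls 3 came from another numbering series than the HD mice. Egr2 (-1.81 ± 0.45), Fos (-1.28 ± 0.43), Arc (-1.07 ± 0.39) and Nr4a1 (-1.06 ± 0.37) had the lowest values. The quasi-likelihood test of edgeR, adjusted by Benjamini-Hochberg, called 0 of 10, and DESeq2 called 0. The list median was -0.35 in PV IPs, where 5 had an unadjusted p under 0.05 (619 of all 14713), and -0.38 in cerebral total RNA, where 3 did (1055 of all 14880).

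Some glial markers in cerebellar total RNA, where 25.6% of all genes were called, moved beside Per3 and Nr1d2. Of 8 astrocyte markers 2 passed, Aqp4, which fell by 1.01 ± 0.30 on the log2 scale, and Gja1, which fell by 0.72 ± 0.24. Of 6 microglia markers 3 passed: Tmem119, C1qa and Csf1r rose by 0.67 ± 0.15, 0.61 ± 0.15 and 0.52 ± 0.14 (edgeR adjusted p 0.0325, 0.042, 0.0268, 0.027 and 0.0287 in that order). The median of each list was -0.02 and 0.32. The part of these changes in the clock genes was not tested.

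These data set limits to what is said above. The labels give no hour of death, so the clock phase of each mouse is not known and differences of phase cannot be told apart from differences of level. The SST HD mice share a numbering series with 2 of 5 controls only. Cerebral and cerebellar libraries of a line came from the same mice, and each IP type from 1 Cre line, so line and neuron type cannot be told apart. Base composition of libraries differed and moved with genotype in cerebellar vGluT2 total RNA. RNA bound to ribosomes and total RNA are not protein. The strand setting of the counting is not stated.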
